A study of Homo sapiens with 4 samples.

Results

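Aminoacyl-tRNA synthetases are the enzymes that attach each amino acid to its cognate tRNA, the step that supplies ribosomes with charged tRNA. Human cells hold separate nuclear-encoded sets for the cytosol and for mitochondria, and the cytosolic enzymes of several amino acids are bound, together with the scaffold proteins AIMP1, AIMP2 and EEF1E1, in the multisynthetase complex. PDCD4 is an RNA-binding tumour suppressor that is known as an inhibitor of the translation initiation factor eIF4A. The listed crosslink sites of PDCD4 on the mRNAs and pre-mRNAs of these genes are described here.

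The set of genes was drawn up with earlier results of these data known. Its genes were taken by symbol from the gene labels of the deposited site lists. They were 20 cytosolic synthetases, 16 mitochondrial synthetases, whose symbols end in 2, and the 3 scaffold proteins, 39 genes in all. Of these, 38 were among the 14416 genes that carry a site in either list, and PARS2, the mitochondrial prolyl-tRNA synthetase, had none in either list. GARS and KARS were counted as cytosolic, although each is known to encode both the cytosolic and the mitochondrial enzyme. Symbols are those of Ensembl release 88, so that AARS, EPRS or NARS stand for the genes now called AARS1, EPRS1 and NARS1.

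All samples were wild-type MCF10A cells, an established line of non-transformed breast epithelial cells, grown without any further treatment, and 2 replicates each were immunoprecipitated with an antibody against PDCD4 or with control IgG. In iCLIP, UV light links protein to RNA in the living cell and reverse transcription stops at the link, so that the end of each cDNA marks a contact to the nucleotide. The authors deposited 1 list per immunoprecipitation in which both replicates are pooled, and each entry is a position of 1 nt with its number of cDNAs. There is therefore no spread between replicates and no test between PDCD4 and IgG, and the intervals given, at 95%, reflect the counting error alone.

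For PDCD4, 158922 sites with 409308 cDNAs were listed and for IgG 111361 sites with 276139 cDNAs, so values are given per 10000 cDNAs of a list or as log2 ratios of these shares with 1 cDNA added to each count. The authors kept sites below their false discovery rate threshold, and a gene without a site has no listed site rather than no contact. The number of cDNAs of a gene depends on how much of its RNA was present as well as on its contact with the protein, and these lists cannot tell them apart. Of 11 epithelial marker genes all had PDCD4 sites, with 808 cDNAs for the keratin gene KRT7, and none of 4 markers of other cell types had a site in either list.

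For PDCD4 the synthetase genes carried 1465 cDNAs at 584 sites, and for IgG 908 cDNAs at 370. These were 35.79 and 32.88 of every 10000 cDNAs listed, a ratio of 1.09 (1.00 to 1.18). As a whole the genes were thus close to equally represented in both lists, and the differences lay between the genes and between the regions of a gene. The sites were shallow. The highest number of cDNAs at one position was 6 for PDCD4 and 5 for IgG, against 87 and 22 over all genes, and 4 member sites had more than 5 cDNAs, the filter that the study's methods name. Of the 584 PDCD4 positions, 2 were also listed for IgG, as were 721 of the 158922 over all genes. The study's methods describe removal of IgG sites from the PDCD4 replicates, so a low overlap is no result about these genes.

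The coding sites with at least 5 PDCD4 cDNAs lay in 3 mRNAs, EPRS, NARS and YARS, which encode the cytosolic bifunctional glutamyl-prolyl-, the asparaginyl- and the tyrosyl-tRNA synthetase. Their surroundings are shown because they are the strongest contacts with coding sequence among these genes. Each line gives the RNA strand 5′ to 3′ with T for U, from GRCh38, and capitals mark every position at which a PDCD4 site was listed. All these genes lie on the minus strand.

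EPRS exon 18, chr1:219997123-219997183: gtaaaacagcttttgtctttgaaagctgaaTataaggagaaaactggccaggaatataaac
EPRS exon 20, chr1:219987341-219987401: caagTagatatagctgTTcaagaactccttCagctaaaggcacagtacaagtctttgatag
EPRS exon 27, chr1:219979553-219979613: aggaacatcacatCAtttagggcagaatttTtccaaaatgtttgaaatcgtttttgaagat
EPRS exon 32, chr1:219968896-219968956: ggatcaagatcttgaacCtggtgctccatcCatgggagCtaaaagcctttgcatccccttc
NARS exon 3, chr18:57615852-57615912: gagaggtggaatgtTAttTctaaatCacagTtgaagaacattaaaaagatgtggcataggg
YARS exon 13, chr1:32776008-32776068: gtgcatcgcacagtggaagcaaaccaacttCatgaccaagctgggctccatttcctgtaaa

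The densest contact was in NARS, where 5 sites within 17 nt of exon 3 held 19 PDCD4 cDNAs, with peaks of 6 and 5 cDNAs at positions 187 and 182 of the 1644-nt coding sequence. One IgG site with 2 cDNAs lay in the same window. The next was in EPRS exon 20, where 4 sites held 15 PDCD4 cDNAs and the IgG list had no site in the window. The windows of EPRS exons 32 and 18 held 10 and 6 PDCD4 cDNAs and no IgG site. In EPRS exon 27 there were 7 PDCD4 cDNAs at 3 sites. The highest of these, with 5 cDNAs at position 3744 of the coding sequence, was also an IgG site with 2 cDNAs. In YARS exon 13 there was a single PDCD4 site with 5 cDNAs. When sites closer than 20 nt were joined, the 584 PDCD4 sites formed 524 groups, of which 480 were single positions, and the groups in NARS exon 3 and EPRS exon 20 were the 2 with more than 10 cDNAs. No IgG group of these genes exceeded 10 cDNAs.

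Outside coding sequence, 5 of the 14 PDCD4 sites with at least 5 cDNAs lay in introns. Examples are the intronic site in YARS2, the mitochondrial tyrosyl-tRNA synthetase, which had no IgG site at all, and the 3′UTR site with 5 cDNAs in IARS, the cytosolic isoleucyl-tRNA synthetase, printed again with capitals at listed PDCD4 positions and both from the minus strand.

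YARS2 intron, chr12:32752107-32752135: ttgttaggtgatttCatcattgcaaatat
IARS 3′UTR, chr9:92210727-92210755: cctacacatacatgCacatagacacacac

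In the window shown, the IARS 3′UTR also held 1 IgG site with 2 cDNAs. The 29 nt around each of these sites matched the genome exactly once. The 29 nt around the intronic site with 5 cDNAs in FARSB, a subunit of phenylalanyl-tRNA synthetase, had 15412 exact matches in the genome and are not shown.

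EPRS had the largest PDCD4 value of all 39 genes, with 181 cDNAs spread over 70 sites, where IgG had 59 over 23 sites, or 4.42 and 2.14 per 10000. By its cDNAs it ranked 270 among all genes for PDCD4 and 1085 for IgG. Its log2 ratio was 1.03 (0.62 to 1.499), but it was within 2-fold, at 0.97, when 5 cDNAs were added to each count in place of 1, and at 0.78 with sites within 20 nt merged. Coding sequence held 60 of the 70 PDCD4 sites, in 15 of its 32 exons, and 9 of the 23 IgG sites. Along the coding sequence, cut into 3 stretches of equal length, the sites increased from 12 to 21 to 27, with 45.0% (33.1% to 57.5%) in the last stretch, an interval that holds the 33.2% of all genes. The 9 coding IgG sites were spread as 1, 4 and 4, with 44.4% in the last stretch. Exon 18 with 24 cDNAs, exon 20 with 22, exon 32 with 19 and exon 27 with 18 held the most. The direction depended on the region: in exons EPRS had 165 PDCD4 and 29 IgG cDNAs, a log2 ratio of 1.31 (0.78 to 1.98), and in introns 16 and 30, a log2 ratio of -1.01 (-2.02 to -0.13).

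**Figure D1:**
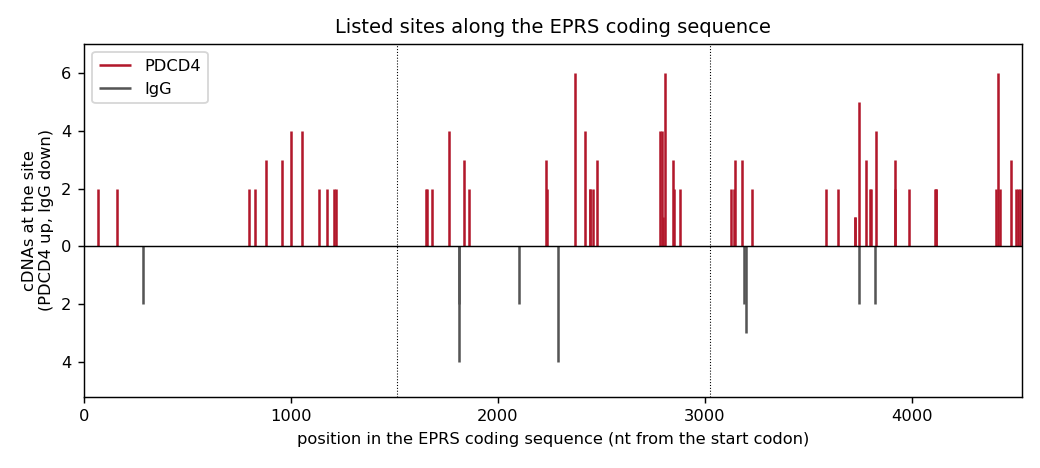
Listed sites along the 4536-nt coding sequence of EPRS (x axis, nt from the start codon) with their number of cDNAs (y axis, PDCD4 upwards and IgG downwards); dotted lines mark the 3 stretches of equal length. The PDCD4 sites reach 6 cDNAs at 3 positions, and the IgG sites reach 4.

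Among the other cytosolic enzymes with large PDCD4 values, a first group stood above IgG. AARS, the alanyl-tRNA synthetase, had 62 PDCD4 and 10 IgG cDNAs and a log2 ratio of 1.95 (1.09 to 3.19). YARS had 57 and 11, with a log2 ratio of 1.71 (0.86 to 2.89). NARS had 51 and 14, with a log2 ratio of 1.23 (0.42 to 2.27). The NARS ratio depended on how cDNAs at neighbouring positions were counted: by number of sites it was 0.68, and with sites within 20 nt merged 0.39, both within 2-fold. In exons AARS, YARS and NARS had 51, 29 and 44 PDCD4 cDNAs against 6, 2 and 9 for IgG, and YARS was also higher in introns, with 28 against 9. CARS, the cysteinyl-tRNA synthetase, had 64 and 21 cDNAs and, at a log2 ratio of 1.00 (0.9951 before rounding), fell just short of 2-fold.

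A second group, IARS, LARS and FARSB, did not stand above IgG. IARS had 120 PDCD4 and 88 IgG cDNAs and a log2 ratio of -0.12 (-0.53 to 0.29). LARS, the leucyl-tRNA synthetase, had 112 and 70, with a log2 ratio of 0.10 (-0.33 to 0.56). FARSB had 47 and 56, with a log2 ratio of -0.82 (-1.41 to -0.24), and 39 of its PDCD4 cDNAs were intronic. LARS was the reverse of EPRS in its regions: its exons had 59 PDCD4 and 54 IgG cDNAs, a log2 ratio of -1.03 (-1.58 to -0.47), and its introns 53 and 16, a log2 ratio of 1.53 (0.76 to 2.49). In IARS the exonic and intronic log2 ratios were close, -0.31 and -0.27, each with an interval that held 0.

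The largest measured ratio was that of KARS, the lysyl-tRNA synthetase, with 42 PDCD4 cDNAs at 17 sites and 3 IgG cDNAs at a single site, a log2 ratio of 2.86 (1.59 to 5.57). GARS, the glycyl-tRNA synthetase, had 44 and 9 cDNAs and a log2 ratio of 1.60 (0.67 to 2.94), and MARS, the methionyl-tRNA synthetase, 25 and 5, with 1.55 (0.34 to 3.50). The smallest was that of DARS, the aspartyl-tRNA synthetase, with 9 and 21 cDNAs and a log2 ratio of -1.71 (-3.10 to -0.60). TARS, the threonyl-tRNA synthetase, was also lower, with 15 and 25 cDNAs and -1.27 (-2.33 to -0.32). In both, most IgG cDNAs were intronic (17 and 22). The remaining cytosolic genes, FARSA, HARS, QARS, RARS, SARS, VARS and WARS, had between 16 and 45 PDCD4 and between 3 and 25 IgG cDNAs. Among these 7 genes, the 6 with at least 20 cDNAs in all had intervals that held 0. QARS, with 16 PDCD4 cDNAs and 3 IgG cDNAs at 1 site, had a log2 ratio of 1.52 (0.04 to 4.27).

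**Figure D2:**
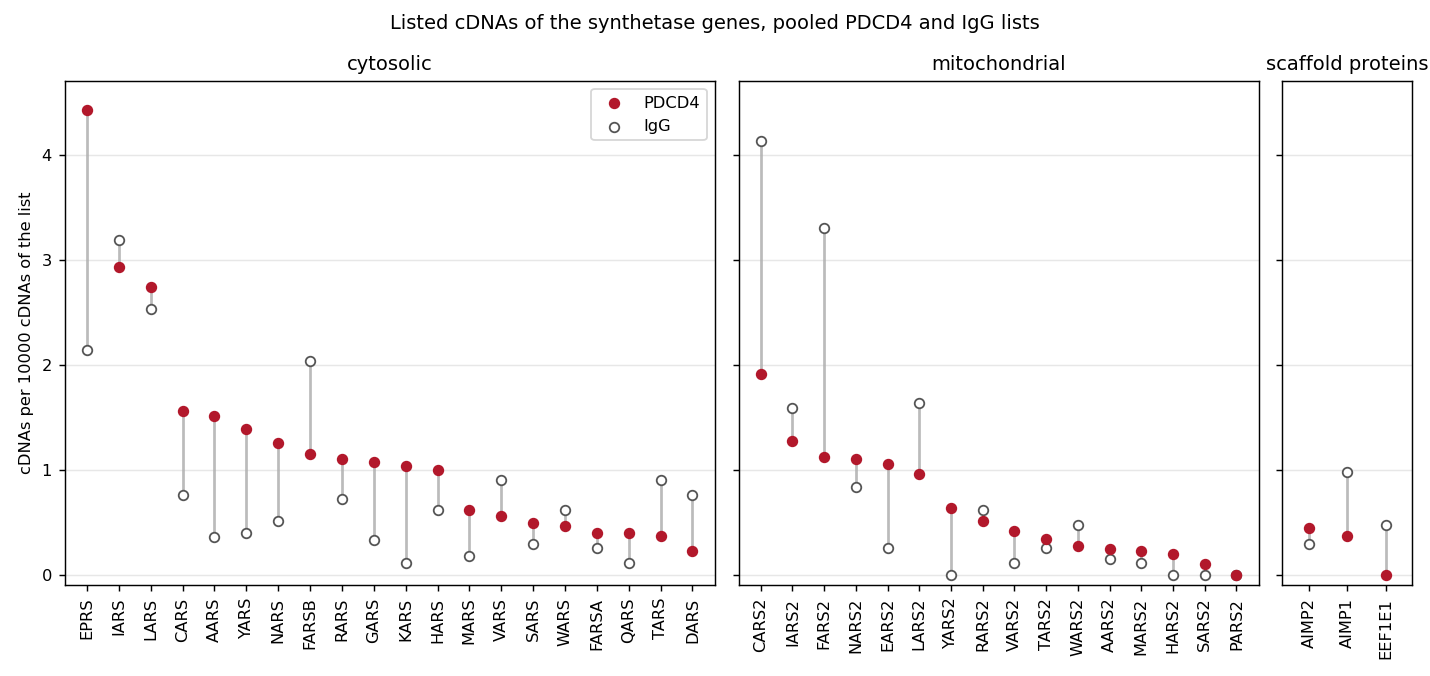
cDNAs of each gene per 10000 cDNAs of the list (y axis) in the pooled PDCD4 list (filled) and the pooled IgG list (open), 1 value per list, ordered by PDCD4 cDNAs within cytosolic, mitochondrial and scaffold genes (x axis). EPRS stands highest for PDCD4 at 4.42, and CARS2 highest for IgG at 4.13.

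The mitochondrial enzymes with the largest IgG values, CARS2, FARS2 and LARS2, were lower with PDCD4. CARS2, the mitochondrial cysteinyl-tRNA synthetase, had 78 PDCD4 and 114 IgG cDNAs and a log2 ratio of -1.11 (-1.55 to -0.69). The log2 ratios were similar over the exons of every transcript (-1.10) and in introns (-0.94). In exons of the canonical transcript alone, CARS2 had 6.53 PDCD4 cDNAs per kb and no IgG site. Over every listed site its ratio was within 2-fold by number of sites (-0.93) and with sites merged (-0.77). FARS2, the phenylalanyl enzyme, had 46 and 91, with a log2 ratio of -1.54 (-2.10 to -1.03), and 41 and 89 of these cDNAs lay in its introns, which span 508392 nt. LARS2, the leucyl enzyme, had 39 and 45 cDNAs and a log2 ratio of -0.77 (-1.43 to -0.12). These 3 genes together made up most of the 371 IgG cDNAs of the mitochondrial class.

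IARS2, the isoleucyl enzyme, was level between the lists, with 52 PDCD4 and 44 IgG cDNAs and a log2 ratio of -0.33 (-0.93 to 0.29), and 13 of its 23 PDCD4 sites were coding. NARS2, for asparagine, had 45 and 23 cDNAs and a log2 ratio of 0.37 (-0.35 to 1.19), of which 40 and 19 were intronic. RARS2, for arginine, had 21 and 17, with a log2 ratio of -0.28 (-1.26 to 0.75). The intervals of these 3 genes held 0.

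A few mitochondrial genes were higher with PDCD4. EARS2, the glutamyl enzyme, had 43 cDNAs at 17 sites against 7 at 3 sites, a log2 ratio of 1.89 (0.89 to 3.45), and 35 of the 43 were exonic. YARS2 had 26 cDNAs at 11 sites, 7 of them coding, and no listed IgG site, so no ratio is given. VARS2, the valyl enzyme, had 17 and 3 cDNAs and a log2 ratio of 1.60 (0.15 to 4.35), which rests on a single IgG site. TARS2 and WARS2 had 14 and 7, and 11 and 13 cDNAs, with intervals that held 0. AARS2, HARS2, MARS2 and SARS2 had at most 14 cDNAs over both lists, and HARS2 and SARS2 had no IgG site. The labels of SARS2 and MARS2 sites are in part shared with a second gene.

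Of the scaffold proteins, AIMP1 was lower with PDCD4, with 15 and 27 cDNAs and a log2 ratio of -1.38 (-2.43 to -0.45). AIMP2 had 18 and 8 cDNAs, with a log2 ratio of 0.51 (-0.67 to 2.01), and 7 of the 18 lay at a pair of neighbouring intronic positions. EEF1E1 had 13 IgG cDNAs, all intronic, and no PDCD4 site.

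Counted together, 32 genes had at least 20 cDNAs over both lists. Of these 10 were more than 2-fold higher with PDCD4, where 16.4% of all 7305 genes with that many cDNAs were, and 5 were more than 2-fold lower, against 16.1% of all genes. The 10 were AARS, EPRS, GARS, KARS, MARS, NARS, YARS, EARS2, VARS2 and YARS2, and the 5 were DARS, TARS, CARS2, FARS2 and AIMP1. YARS2, with 26 PDCD4 cDNAs and no IgG site, has a finite ratio only through the cDNA added to each count. With 5 cDNAs added in place of 1 its log2 ratio was 2.06. The other 17 genes lay within 2-fold. The interval lay above 0 for 10 genes, the 9 higher ones that have an interval and CARS, and below 0 for 7 genes, the 5 lower ones with FARSB and LARS2. The median log2 ratio of the 32 genes was 0.44 and that of all genes -0.10.

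**Figure D3:**
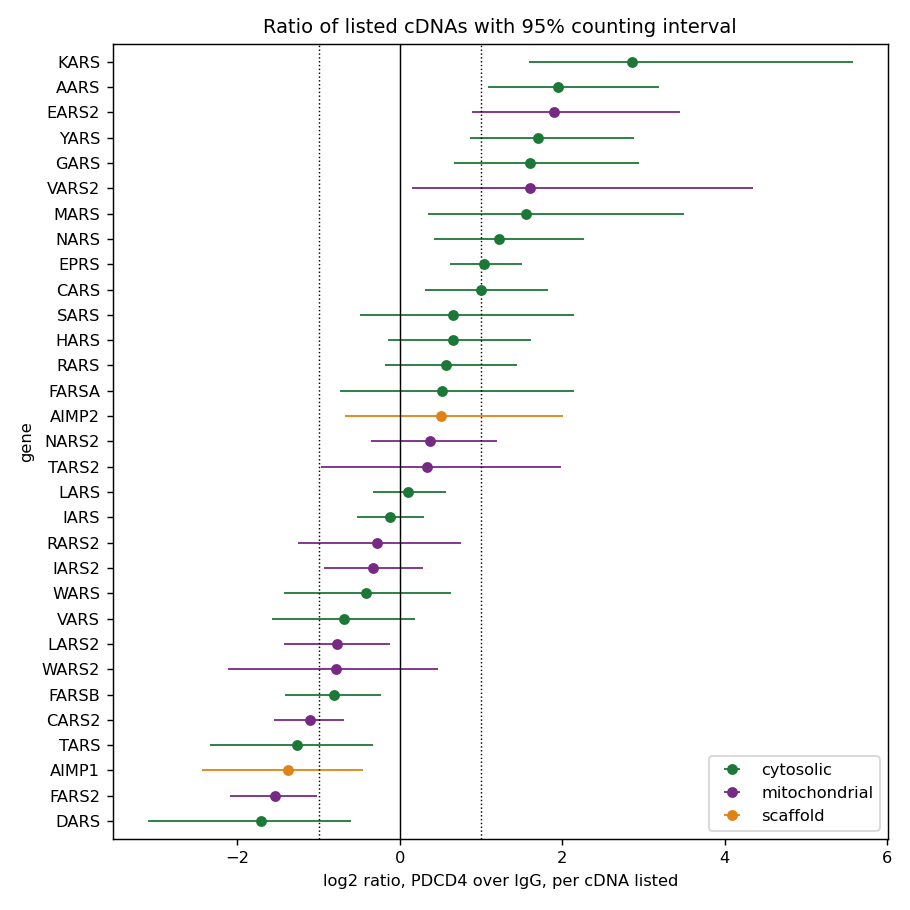
log2 ratio of PDCD4 over IgG shares (x axis) for the 31 genes with at least 20 cDNAs and sites in both lists (y axis), coloured by class, with 95% counting intervals as bars and dotted lines at 2-fold. KARS is the highest at 2.86 and DARS the lowest at -1.71; YARS2, with no IgG site, is not drawn.

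The summed cDNAs of the cytosolic and mitochondrial enzymes differed. The 20 cytosolic genes summed to 1009 PDCD4 and 489 IgG cDNAs, a ratio of 1.39 (1.25 to 1.55), and the 16 mitochondrial genes to 423 and 371, a ratio of 0.769 (0.668 to 0.887). On the log2 scale the cytosolic ratio exceeded the mitochondrial one by 0.86 (0.60 to 1.11). Among genes with at least 20 cDNAs the median log2 ratio was 0.65 over 19 cytosolic genes, of which 7 were higher and 2 lower, and -0.28 over 11 mitochondrial genes, of which 3 were higher and 2 lower. The direction of the difference remained without the largest gene of each class, EPRS and CARS2, at 0.52 (0.23 to 0.81), and without GARS and KARS, at 0.76 (0.51 to 1.02). FARS2, with 46 PDCD4 and 91 IgG cDNAs, stayed in both settings, and the difference without it was not computed. CARS2 and FARS2 held 114 and 91 of the 371 mitochondrial IgG cDNAs. The mitochondrial ratio, and the size of the difference, thus rest in large part on these 2 genes. A difference with both left out was not computed either. The genes of a class are not replicates of a condition, and the classes overlapped widely gene by gene.

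Exons and introns were then taken apart, because the lists differ in how much of each they hold: 208902 PDCD4 and 93897 IgG cDNAs were exonic and 201133 and 182523 intronic, and each ratio was taken against the totals of its own region. In exons 17 member genes had at least 20 cDNAs; 9 were more than 2-fold higher with PDCD4, where 19.1% of all 4021 genes were, and 3 were lower, against 18.9%. Of the 9 genes 8 were cytosolic, AARS, CARS, EPRS, GARS, KARS, NARS, RARS and YARS, and the other was EARS2. The exonic intervals of the 8 lay above 0, those of NARS (from 0.08) and RARS (from 0.04) narrowly, and that of EARS2 (-0.02 to 2.58) held 0. CARS, RARS and YARS each had only 2 exonic IgG cDNAs. The lower genes were LARS, CARS2 and AIMP1, and all exonic IgG cDNAs of CARS2 lay outside the exons of its canonical transcript. The exonic sums were 665 and 199 cDNAs for the cytosolic genes, a ratio of 1.5 (1.28 to 1.77), and 186 and 87 for the mitochondrial genes, a ratio of 0.961 (0.741 to 1.25).

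In introns 2 of 17 member genes were more than 2-fold higher, LARS and YARS, with 15.8% of all 4666 genes, and 6 were lower, with 15.5%. The 6 were DARS, EPRS, TARS, WARS, FARS2 and IARS2. The intronic ratio was 1.08 (0.918 to 1.26) for the cytosolic genes, with 344 and 290 cDNAs, and 0.745 (0.623 to 0.888) for the mitochondrial genes, with 233 and 284. The surplus of the cytosolic genes over IgG was thus seen in exons, while their intronic ratio had an interval that held 1. Taken within coding sequence alone, the cytosolic ratio was 1.53 (1.22 to 1.92) and the mitochondrial ratio 1.15 (0.744 to 1.83), and the difference between the classes, 0.41 on the log2 scale, had an interval from -0.28 to 1.10.

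The genes were also grouped by assembly. Over every listed site the 12 cytosolic enzymes outside the multisynthetase complex had a ratio of 1.41 (1.20 to 1.66) and the complex one of 1.24 (1.08 to 1.43), with overlapping intervals. In exons the ratios lay further apart. The enzymes outside the complex had 286 PDCD4 and 58 IgG exonic cDNAs, a ratio of 2.22 (1.67 to 2.99). The 11 components of the complex, which include the scaffolds with 17 and 21 exonic cDNAs, had 396 and 162, a ratio of 1.10 (0.913 to 1.33). EPRS alone supplied 165 of the 396, and without it the complex had a ratio of 0.781 (0.628 to 0.974). Most exonic IgG cDNAs of the complex outside EPRS came from LARS (59 PDCD4 and 54 IgG), IARS (80 and 44) and the scaffolds. The other enzymes of the complex had few: KARS 27 and 3, RARS 19 and 2, QARS 13 and 3, MARS 10 and 2, and DARS 6 and 4. The low ratio thus does not describe each gene of the complex. In introns the ratios were 0.969 (0.778 to 1.21) outside the complex and 1.09 (0.880 to 1.36) within it, so the groups overlapped there.

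The cytosolic enzymes also fall into structural classes I and II, which differ in the fold of the catalytic domain, and 8 of the 10 class II enzymes lie outside the complex. EPRS, which carries a domain of each class, was counted with class I. Over every listed site the ratios were close, 1.4 (1.22 to 1.61) for class I and 1.38 (1.14 to 1.66) for class II. In exons they were 1.27 (1.05 to 1.54) and 2.21 (1.62 to 3.07). In coding sequence the 10 class II genes had 171 PDCD4 and 14 IgG cDNAs, a ratio of 3.83 (2.22 to 7.15), and the 10 class I genes had 292 and 81, a ratio of 1.13 (0.880 to 1.46). These IgG counts rest on few sites and genes. No class II gene had more than the 2 coding IgG sites of FARSB. In class I, EPRS, LARS, IARS and VARS had 9, 9, 6 and 3, while MARS, QARS and RARS had 1 each. CARS, WARS and YARS had no coding IgG site, so the class ratio does not describe each gene. In introns the order was the opposite, 0.795 (0.607 to 1.04) for class II and 1.28 (1.04 to 1.57) for class I.

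**Figure D4:**
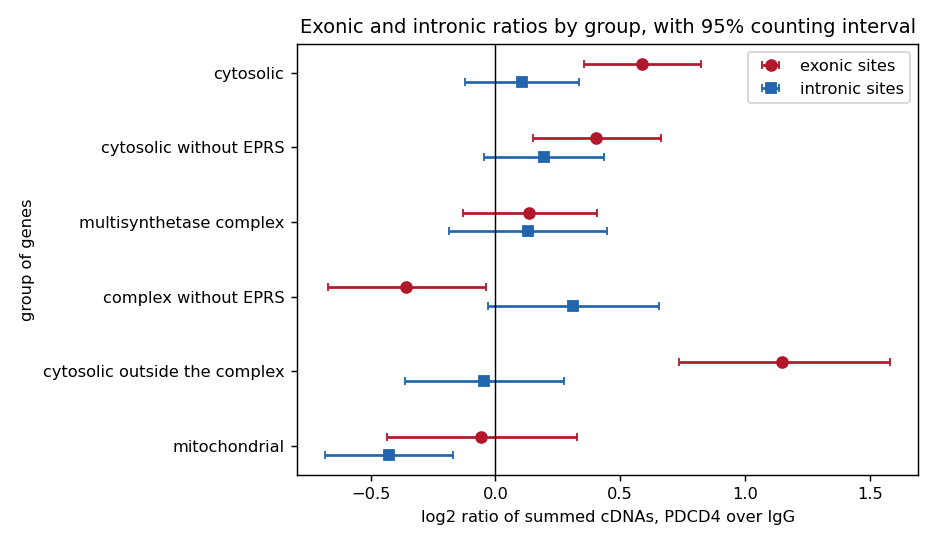
log2 ratio of summed cDNAs, PDCD4 over IgG (x axis), for exonic sites (circles) and intronic sites (squares) of 6 groups of genes (y axis), with 95% counting intervals. The exonic ratio of cytosolic enzymes outside the complex stands highest, at 1.15, and that of the complex without EPRS lies below 0, at -0.36.

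Sites, rather than cDNAs, were then counted by region. Coding sequence held 223 of the 584 PDCD4 sites in synthetase genes, 38.2% (34.3% to 42.2%), against 20.3% over all genes. Introns held 236 (40.4%, against 50.6%), 3′UTRs 57 (9.76%, against 20.3%), exons of noncoding transcripts 60 (10.3%, against 5.57%) and 5′UTRs 6 (1.03%, against 2.30%). In the IgG list 50 of 370 member sites were coding, 13.5% (10.4% to 17.4%), against 9.43% for all genes, and 245 were intronic. The coding share of these genes was above that of all genes in both lists, by more for PDCD4. The shares of all genes include noncoding genes, which have no coding sequence, so they are not those of protein-coding genes alone.

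The coding share of PDCD4 sites was 45.1% (40.3% to 50%) in the cytosolic genes and 23.4% (17.8% to 30.2%) in the mitochondrial genes, where introns held 54.3%. The IgG list had the same order, with 17.6% (13.0% to 23.5%) in the cytosolic and 6.08% (3.23% to 11.2%) in the mitochondrial genes. EPRS contributed 60 of the 223 coding sites. Without it the coding share of the synthetases was 31.7% (27.8% to 35.9%) and that of the cytosolic genes 36.4% (31.4% to 41.7%). All 4 member sites with more than 5 cDNAs were coding.

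**Figure D5:**
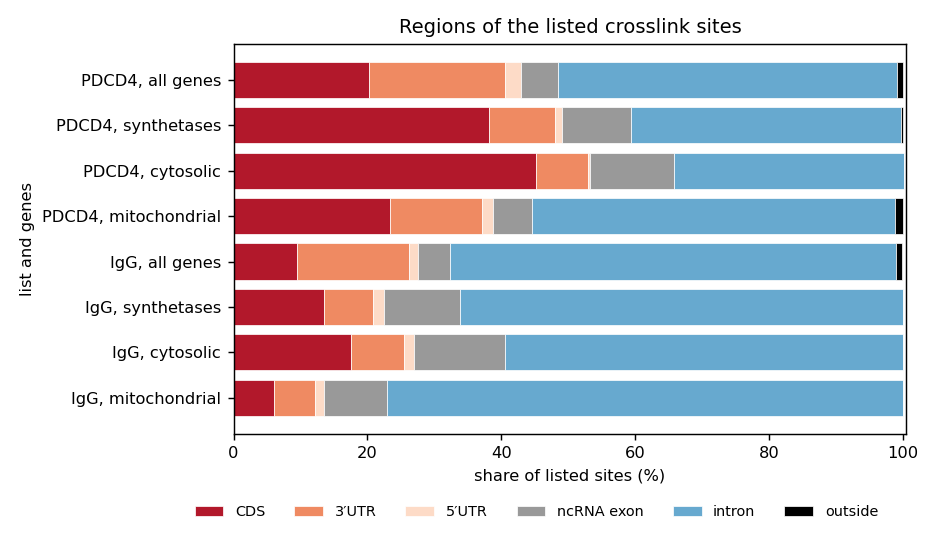
Share of listed sites in each region (x axis, percent) for all genes, all synthetase genes, and the cytosolic and mitochondrial genes in each pooled list (y axis). The coding share is 45.1% for cytosolic genes in the PDCD4 list and 6.08% for mitochondrial genes in the IgG list.

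Levels per length of mRNA count only cDNAs in the exons of the canonical transcript, for some genes fewer than the exonic cDNAs given above, which include exons of every transcript. The cytosolic genes had a median of 5.87 exonic PDCD4 cDNAs per kb (from 1.18 in FARSB to 33.9 in EPRS), the mitochondrial genes a median of 2.52 (from 0 to 10.5), and all 11920 protein-coding genes with a site a median of 1.68. On this scale NARS followed EPRS with 15.9 per kb, then GARS with 14.4, KARS with 13.6 and AARS with 12.2, and IARS2 with 10.5 was the highest mitochondrial gene. HARS and IARS stood at 8.73 and 9.37 per kb on this count, although their exonic cDNAs over all transcripts were 38 and 80, so the order depends on the transcripts counted. The IgG densities of EPRS (5.96 per kb), LARS (6.30) and IARS (5.80) were near each other, while their PDCD4 densities were 33.9, 5.88 and 9.37.

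Along exons, coding sites lay near the upstream splice junction more often than near the downstream one. Of 222 PDCD4 coding sites of the synthetases 116 lay in the first 50 nt of an exon that follows an intron, 52.3% (45.7% to 58.7%), where 37.1% of their coding positions lie. Only 3 lay in the last 50 nt before an intron, 1.35% (0.461% to 3.90%), where 36.7% of the positions lie. The IgG list had 51.0% and 4.08% in these windows, from 49 sites. Over all genes 37.1% of PDCD4 coding sites lay in the first window, which holds 27.7% of positions, and 3.64% in the last, so that both lists and all genes showed the same order.

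Over the coding sequence as a whole, 72, 81 and 69 of the 222 PDCD4 sites lay in its 3 successive stretches. Without EPRS they were 60, 60 and 42, with 25.9% (19.8% to 33.2%) in the last stretch, against 45.0% for EPRS. The nucleotide at the PDCD4 sites was a uridine in 46.9% (42.9% to 51.0%) of member sites and in 46.7% of the sites of all genes. For IgG it was 52.2% and 51.5%. Cytidine followed with 27.7% of member PDCD4 sites. In the sequences shown, the positions with 6 cDNAs were a C in EPRS exons 20 and 32 and a T in EPRS exon 18 and in NARS.

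The other genes around tRNA charging were taken by list. Of 10 charging partners, among them proofreading and amidation factors, 4 had at least 20 cDNAs, with a median log2 ratio of -0.49. DTD1, a deacylase that removes D-amino acids from tRNA, had 41 PDCD4 and 42 IgG cDNAs. None was more than 2-fold higher and 1 was lower, QRSL1, with 6 and 15 cDNAs, named here because of that value; over all genes the shares were 16.4% and 16.1%.

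Of 20 genes of tRNA maturation, modification and export 12 had at least 20 cDNAs, with a median log2 ratio of -0.18, and 3 were higher and 2 lower, where 16.4% and 16.1% of all genes were. The 3 were NSUN2, a tRNA cytosine methyltransferase, with 65 and 15 cDNAs and a log2 ratio of 1.48 (0.72 to 2.46), POP1, a subunit of RNase P, with 55 and 17 and 1.07 (0.32 to 2.004), and PUS1, a pseudouridine synthase, with 53 and 3 and 3.19 (1.95 to 5.90). The lower genes, named for their values, were ADAT2, with 24 and 44 cDNAs, and SSB, with 15 and 30. NSUN2, POP1 and PUS1 also had the largest PDCD4 sums of the list.

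Of 17 genes of the amino acid response, through which a shortage of charged tRNA is known to raise synthetase expression, 10 had at least 20 cDNAs, with a median log2 ratio of 0.11, and 1 was higher and 3 lower, against 16.4% and 16.1% of all genes. DDIT4 was higher, with 128 PDCD4 and 34 IgG cDNAs and a log2 ratio of 1.31 (0.79 to 1.94). EIF2AK4, the kinase that senses uncharged tRNA, had 52 and 34, with 0.03 (-0.61 to 0.71). The 3 lower genes, again named for their values, were the serine synthesis genes PSAT1, with 17 and 62 cDNAs and -2.38 (-3.30 to -1.64), and PHGDH, with 8 and 15, and ATF4, the transcription factor of the response, with 24 IgG cDNAs and no listed PDCD4 site.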

How the data were processed

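iCLIP of MCF10A cells was analysed from the deposited site lists, 1 for PDCD4 and 1 for IgG, each pooling 2 replicates. The authors called sites with iCount on the Ensembl release 88 genome (GRCh38), and the score deposited for each site is a raw cDNA count, not normalized; aligner settings are not given in the sources used here. The study's methods also describe removal of IgG sites, although 721 positions stand in both lists, and a score filter (greater than 5) that was not applied to the deposited lists; all scores were used. RNA-seq, polysome and protein data were not analysed here.

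Sites were assigned to their labelled genes, and to all genes where several are labelled, and to regions of GENCODE release 44 (CDS first, then 3′UTR, 5′UTR, exons of noncoding transcripts and intron); exon positions refer to the Ensembl canonical transcript. The gene identifier was known to that release for 99.52% of 276433 site-gene pairs. Ratios used a pseudocount of 1 cDNA, a minimum of 20 cDNAs over both lists and a 2-fold threshold. Shares have Wilson intervals and ratios exact (Clopper-Pearson) intervals, both 95%, while the difference between classes has a normal interval on the log2 scale; cDNAs without a replicate spread are not independent measurements of a condition.

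Genes described in full were those with a site of more than 5 cDNAs, the 8 with most PDCD4 cDNAs in each enzyme class, and the 3 highest and 3 lowest ratios; in the other lists up to 4 genes with the largest sums could be named. The members and lists were chosen with earlier results of these data known. Alternatives were pseudocounts, minimum counts, score filters, numbers of sites, merged sites, totals, regions and genes left out. The ratios were tested on simulated counts. Software was scipy 1.17.1, pandas 2.3.3 and numpy 2.4.6 under Python 3.11.15, with matplotlib 3.10.9 for figures.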

Additional observations from a re-analysis of the deposited data

How the results depend on the processing

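No paired analysis was possible because each deposited list pools its replicates, and for the same reason no replicate could be left out. The count of 10 higher genes was 2 in introns, 6 with a minimum of 50 cDNAs and 5 in coding sequence alone, and the count of 5 lower genes was 3 in exons, 2 with a minimum of 50 cDNAs and 2 in coding sequence; fewer genes reached the minimum in each of these. With a pseudocount of 5 the higher genes were 7, without EPRS (0.97), NARS (0.99) and VARS2 (0.89). With sites within 20 nt merged, EPRS (0.78), NARS (0.39) and CARS2 (-0.77) were within 2-fold and CARS (1.10) was higher. The log2 difference between cytosolic and mitochondrial enzymes, 0.86, was 0.52 without EPRS and CARS2, 0.53 in introns, 0.575 with sites within 20 nt merged and 0.41 in coding sequence. The coding share of member PDCD4 sites, 38.2%, was 31.7% without EPRS and 100% of the 4 sites with scores greater than 5. The uridine share was 42.8% at exonic sites. The log2 ratio of EPRS changed sign in introns, to -1.01. At scores greater than 5 no gene reached 20 cDNAs and no class ratio could be formed. The coding-only settings, the merged sites for the class difference and the coding share without EPRS were chosen after seeing the data. Also not planned were the class difference by number of sites and with totals without the mitochondrial genome. The same holds for the class difference without positions listed in both lists and with rows of 1 gene label only. The other planned settings kept the direction of all 32 ratios, and with exons or introns only 16 of 17 and 15 of 17 did. Most member sites rest on 1 to 3 cDNAs (88.4% for PDCD4), which limits every statement on a single position.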
